A study of Mus musculus with 4 samples.

Results

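The short single-exon Linc transcripts are the entries of the lncRNA table with a NONMMUT identifier, the class Linc (long intergenic non-coding RNA), 1 exon and a length below 400 bases. The rule took 1516 of the 131850 lncRNA entries, and it used no measured value. Their lengths ran from 201 to 399 bases, with a median of 291.5. Total RNA of C3H10T1/2, an established mouse mesenchymal stem cell line, was depleted of ribosomal RNA and sequenced with strand kept. There were 2 untreated samples (replicates 1 and 2) and 2 samples exposed to 5-AZA (replicates 101 and 102) at 20 μmol/L for 72 hours and then kept in fresh medium for 21 days. 5-AZA is a cytidine analogue that inhibits DNA methylation. No culture time is given for the untreated samples, so the effect of the agent and that of the time in culture cannot be told apart. All samples are of 1 cell line, and the study calls the replicates biological repeats, so each p-value measures the spread between repeats of this line. The values are FPKM, fragment numbers divided by transcript length and by the depth of the sample, and so are levels per length.

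Mammalian genomes give rise to many short unspliced RNAs. Some are finished products, such as small nuclear, small nucleolar and Cajal body RNAs, which guide splicing, ribosomal RNA processing and RNA modification. Others are made at promoters, beyond gene ends or within introns, and most of those are soon degraded by the nuclear exosome. A catalogue of long non-coding RNAs that sets a minimum length collects both kinds, together with fragments of pseudogenes and of gene ends.

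The coordinates of 1984 lncRNA entries, 33 of these members, equalled those of a RefSeq gene of build GRCm38.p6, so positions are given on GRCm38, although the processing notes of the submitters name mm9. By these positions a minority lay outside every RefSeq gene span. Spans of any gene kind and either strand count here, also the RefSeq record of the member's own RNA, such as Rn7sk. Of the 1516 members, 968 (63.9%) overlapped the span of a RefSeq gene by at least 1 base, as did 114 (79.7%) of the 143 with a mean of at least 0.1 FPKM. They are therefore called here by their rule, short single-exon Linc transcripts. No gene span covered 548 members, a protein-coding span alone covered 497, a pseudogene 312, a lncRNA gene 120, a small RNA gene of at most 1000 bases 30 and another kind of span 9.

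No genome was used, so sequence could be shown only where a member meets a RefSeq promoter window (250 bases before to 50 after a gene start, GRCm38.p6) or a microRNA. Of the 32851 windows, some met 42 members, 14 of them with a mean of at least 0.1 FPKM. In 11 of these 14 a window lay on the strand opposite to the member, and in 4 on the same strand. The 4 windows shown belong to the members with an overlap of at least 20 bases and an unadjusted p below 0.05 in the comparison given later, and to the member that equals the RNase P RNA gene, Rpph1. They were chosen after the values were seen. Each gives the 250 bases before a start of the named gene, 5′ to 3′ on the strand of that gene. The bases that lie within the member are in capitals. The start need not be the outermost one. The Msantd2 window lies within the span of Msantd2, and the end of the Parp2 window reaches into the span of Parp2. Each member is on the opposite strand, so its RNA reads as the reverse complement of the capitals.
Ankrd42 with NONMMUT062727.2, chr7:92637143-92637392, minus strand: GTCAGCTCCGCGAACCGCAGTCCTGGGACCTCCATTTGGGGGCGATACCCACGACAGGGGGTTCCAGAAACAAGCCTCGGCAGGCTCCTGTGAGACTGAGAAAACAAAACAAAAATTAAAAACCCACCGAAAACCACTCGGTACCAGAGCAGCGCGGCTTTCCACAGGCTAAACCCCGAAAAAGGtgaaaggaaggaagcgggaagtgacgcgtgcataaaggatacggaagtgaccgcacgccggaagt
Psme4 with NONMMUT009108.2, chr11:30771525-30771774, plus strand: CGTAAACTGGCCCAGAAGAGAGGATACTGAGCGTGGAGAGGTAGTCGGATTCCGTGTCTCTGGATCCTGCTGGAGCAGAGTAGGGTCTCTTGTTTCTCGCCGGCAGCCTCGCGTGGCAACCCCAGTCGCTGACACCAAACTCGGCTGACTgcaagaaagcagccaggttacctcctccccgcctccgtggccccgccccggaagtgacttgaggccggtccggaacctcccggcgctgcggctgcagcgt
Msantd2 with NONMMUT068641.2, chr9:37489071-37489320, plus strand: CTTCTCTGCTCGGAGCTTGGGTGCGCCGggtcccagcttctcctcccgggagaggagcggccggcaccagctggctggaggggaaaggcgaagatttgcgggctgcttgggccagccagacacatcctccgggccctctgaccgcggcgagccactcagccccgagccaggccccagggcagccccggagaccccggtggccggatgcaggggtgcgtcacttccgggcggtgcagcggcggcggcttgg
Parp2 with NONMMUT020724.2 (Rpph1), chr14:50807666-50807915, plus strand: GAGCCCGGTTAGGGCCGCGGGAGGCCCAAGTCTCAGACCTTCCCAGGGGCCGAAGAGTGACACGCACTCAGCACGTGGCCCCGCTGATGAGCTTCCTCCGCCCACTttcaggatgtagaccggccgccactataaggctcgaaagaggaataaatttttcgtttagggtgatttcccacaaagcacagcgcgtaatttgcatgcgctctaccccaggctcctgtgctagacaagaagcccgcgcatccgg

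The capitals cover 185 bases beside Ankrd42, 150 beside Psme4, 28 beside Msantd2 and 106 beside Parp2. CG, the dinucleotide that mammals methylate and that reads the same on both strands, occurs 24 times in the whole 300-base window of Ankrd42, 25 times in those of Psme4 and Parp2 and 27 times in that of Msantd2. The median over all 32851 windows is 7, and 20.0%, 18.4% and 15.5% of all windows hold at least 24, 25 and 27. DNA methylation was not measured in these samples.

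The microRNA Mir3069 lies within NONMMUT015511.2, which equals Scarna13, a Cajal body RNA gene (chr12:105031075-105031349, minus strand). Its RefSeq hairpin and both mature RNAs are shown because the member's FPKM cannot tell them from the rest of Scarna13, with the seed (bases 2 to 8) of each mature RNA in capitals.
Mir3069 hairpin: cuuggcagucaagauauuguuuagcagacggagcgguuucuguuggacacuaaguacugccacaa
mmu-miR-3069-5p: uUGGCAGUcaagauauuguuuagc
mmu-miR-3069-3p: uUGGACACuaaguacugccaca

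Most short Linc transcripts were listed at 0 in these cells, and a few were among the more abundant entries of the table. Of the 1516 members, 845 (55.7%) were listed at 0 in all 4 samples, 528 had a mean above 0 but below 0.1 FPKM, and 143 (9.43%) reached the limit of 0.1 FPKM and entered the tests. The values nearest the limit were 0.10 FPKM for NONMMUT073072.2, inside it, and 0.0975 FPKM for NONMMUT033389.2, outside it. A mean of at least 1 FPKM was reached by 58 members, of at least 10 FPKM by 22 and of at least 100 FPKM by 11. The members together held 12.3% and 10.5% of the lncRNA FPKM sum in untreated replicates 1 and 2, and 9.72% and 7.04% in 5-AZA replicates 101 and 102. Their own sums were 18083, 15835, 16481 and 15715 FPKM, while the sums of all lncRNAs were 147311, 150156, 169514 and 223173 FPKM. The last sum holds 49964 FPKM of 1 entry outside the members, NONMMUT020725.2, which had 3562 to 3994 FPKM in the other samples. The share of 7.04% therefore depends on that entry. The 10 most abundant members held 93.9% to 95.8% of the member sum of each sample.

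Of the 22 members with a mean of at least 10 FPKM, 13 overlapped small RNA genes, 4 pseudogenes and 3 a protein-coding span alone. A RefSeq small RNA gene (8 snRNA, 11 snoRNA, 6 guide RNA, 3 RNase P RNA and 2 scRNA genes) overlapped 30 members, and 17 of these 30 entered the tests. The RefSeq gene table gives no strand for them, so the overlap is by position only. These 17 had a median of 134 FPKM and held 90.5%, 95.9%, 89.4% and 87.8% of the member sum in untreated replicates 1 and 2 and 5-AZA replicates 101 and 102. The median was 0.565 FPKM for the 23 tested members at pseudogenes, 0.475 FPKM for the 8 at lncRNA genes, 0.435 FPKM for the 64 in protein-coding spans alone and 0.862 FPKM for the 29 outside every span.

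**Figure D1:**
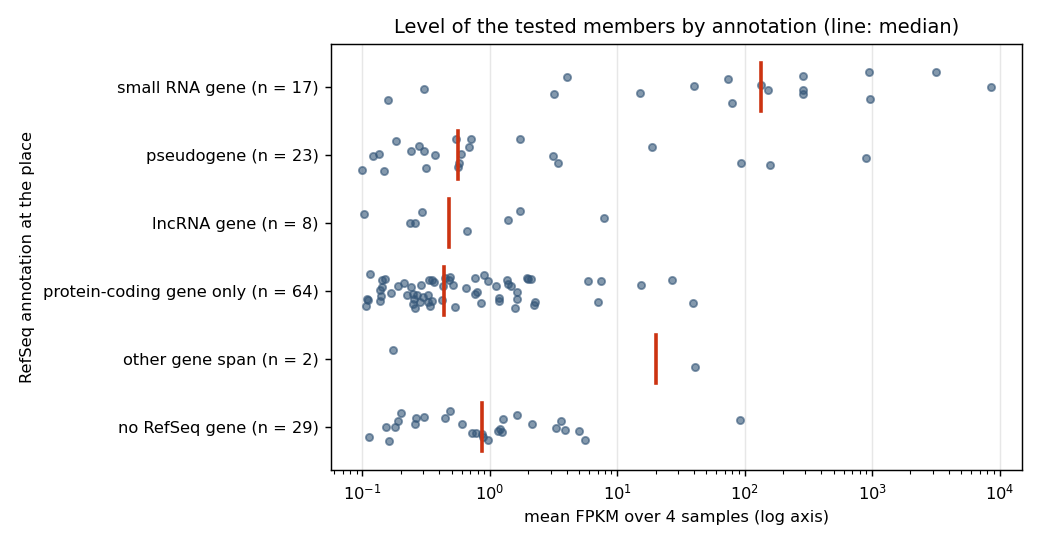
Mean FPKM over the 4 samples (log axis) of each of the 143 tested members, one point each, by the RefSeq annotation at the same place; the red line is the median. Members at small RNA genes have a median of 134 FPKM, and the medians of the pseudogene, lncRNA gene, protein-coding and no RefSeq gene classes lie between 0.435 and 0.862 FPKM; the class of other gene spans has 2 members.

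The most abundant member, NONMMUT012087.2 (375 bases, chr11:101641602-101641976, plus strand), contains Gm24950, which RefSeq lists as an snRNA gene of 191 bases. Its level was 9795 and 8813 FPKM in the untreated samples and 7959 and 7744 FPKM in the 5-AZA samples. The 5-AZA values were below both untreated values, by 0.24 on the log2 scale (SE 0.18, limma adjusted p = 0.611). It alone held 48.3% to 55.7% of the member sum of each sample. The next, NONMMUT058844.2 (325 bases, chr6:125186359-125186683, minus strand), contains the 71 bases of Scarna10 and lies within Ncapd2, a condensin subunit gene. It had 2769 and 2875 FPKM untreated and 3598 and 3439 FPKM after 5-AZA, so the groups did not overlap (log2 change 0.32, SE 0.17, limma adjusted p = 0.504). Its sign turned, to -0.12, when samples were scaled to the lncRNA sum without the most abundant lncRNA.

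Rn7sk, the 7SK RNA that holds the elongation factor P-TEFb inactive, is the whole of NONMMUT070124.2 (332 bases, chr9:78175302-78175633, minus strand). It had 1413 and 1195 FPKM in the untreated samples, 940 FPKM in 5-AZA replicate 101 and 302 FPKM in 5-AZA replicate 102. Both 5-AZA values were lower, but they differed from each other by 3.11-fold (log2 change -1.29, SE 0.58, limma adjusted p = 0.454). Without 5-AZA replicate 102 the log2 change was -0.47, and without 5-AZA replicate 101 it was -2.10. NONMMUT043439.2, which equals the guide RNA gene Gm22009 within the importin gene Kpna4, had 959, 956, 986 and 858 FPKM in untreated replicates 1 and 2 and 5-AZA replicates 101 and 102, and the groups overlapped.

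3 members, NONMMUT011351.2, NONMMUT011353.2 and NONMMUT011357.2, are copies of U3 RNA (Rnu3b1, Rnu3b3 and Rnu3b2), the box C/D RNA needed for ribosomal RNA processing. Their values were identical, 334 and 294 FPKM untreated and 248 and 278 FPKM after 5-AZA, and reads of near-identical copies cannot be assigned to 1 of them. Both 5-AZA values were lower (log2 change -0.25, SE 0.17, limma adjusted p = 0.597). All 3 lie on the same strand inside Tex14, a gene of germ cell intercellular bridges, which had 0.00724 and 0.0146 FPKM untreated and 0.493 and 0.669 FPKM after 5-AZA and rose (log2 change 2.61, SE 0.37, limma adjusted p = 0.00104).

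The remaining small RNA genes among the 15 most abundant members were higher in both 5-AZA samples than in both untreated ones. Snora73a (NONMMUT049856.2), an H/ACA RNA of ribosomal RNA processing within Snhg3, had 106 and 134 FPKM untreated and 136 and 159 FPKM after 5-AZA. This member overlaps 5 other lncRNA entries on the same strand. How reads were divided between them cannot be told from FPKM. Snord17 (NONMMUT040235.2), a box C/D guide within the sorting nexin gene Snx5, had 63.2 and 60.3 FPKM untreated and 92.1 and 105 FPKM after 5-AZA (log2 change 0.67, SE 0.17, unadjusted p = 0.0133 and adjusted p = 0.260 by limma). Snx5 itself had a log2 change of 0.16 (limma adjusted p = 0.263). Gm25395 (NONMMUT001904.2) and Scarna6 (NONMMUT001905.2), both within the autophagy gene Atg16l1, had log2 changes of 0.31 and 0.35 (limma adjusted p = 0.579 and 0.559). None of these passed the test, and their sign depends on the scaling: quantile normalization gave -0.83 for Snora73a, -0.085 for Snord17, -0.90 for Gm25395 and -0.45 for Scarna6.

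Over the 17 tested members at small RNA genes the median log2 change was -0.06, with a range from -1.31 to 1.12. The 5-AZA values lay above the untreated ones in 8, below them in 6 and overlapped them in 3. Over all lncRNAs tested they lay above in 14.6% and below in 31.7%. For several of the 17 the sign depends on the scaling, as given above. The 6 include the 3 copies of U3 RNA, whose identical values amount to 1 measurement. Their replicates lay close together, with a median SD of 0.139 on the log2 scale, against 1.52 over all 143 tested members. In bulk RNA, fewer cells of a type and less RNA per cell cannot be told apart.

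**Figure D2:**
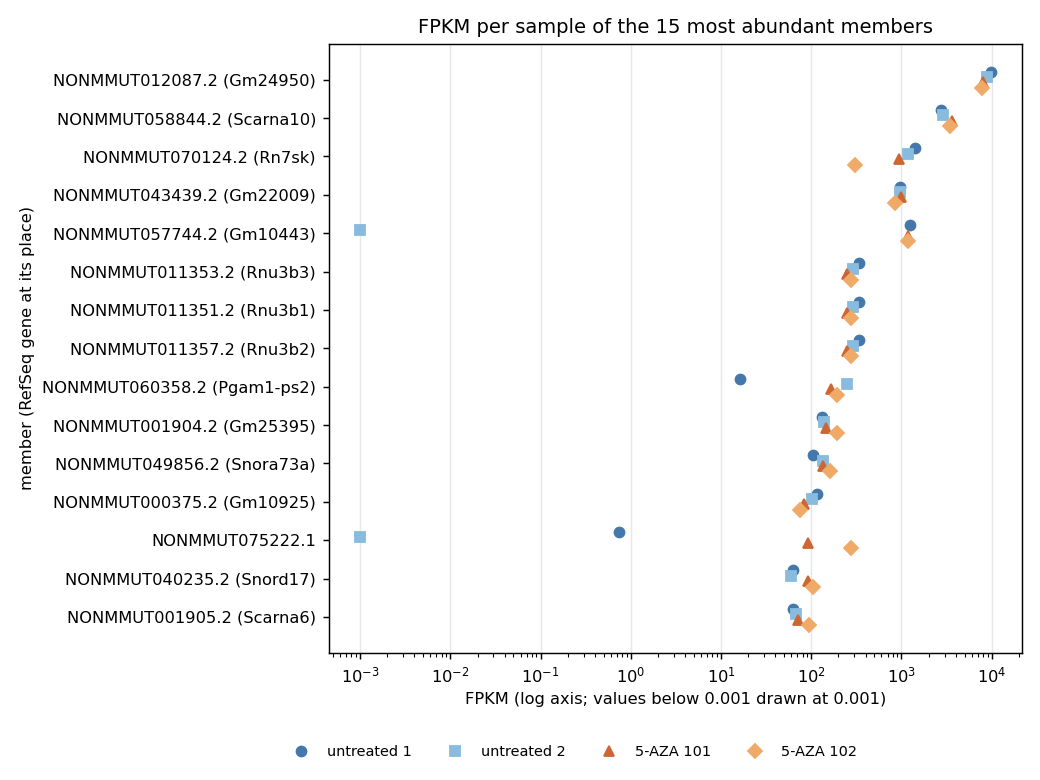
FPKM in each of the 4 samples (log axis, values below 0.001 drawn at 0.001) of the 15 members with the highest mean, with the RefSeq gene at the same place. The 4 samples lie close together for most members; NONMMUT057744.2 has 1 untreated sample near 0, NONMMUT060358.2 has 16.2 FPKM in untreated replicate 1, and NONMMUT075222.1 is high in the 5-AZA samples only.

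RNase P RNA, which cuts the leader from tRNA precursors, gave an unlike picture. NONMMUT020724.2 (325 bases, chr14:50807447-50807771, minus strand) equals Rpph1, the gene beside Parp2 in the sequences above, yet it had 0.490 FPKM in untreated replicate 1, 0.145 FPKM in 5-AZA replicate 101 and values near 0 in the other samples. NONMMUT020725.2 has the same ends and strand but 2 exons and 304 bases, so it is no member. It had 3671, 3994, 3562 and 49964 FPKM in untreated replicates 1 and 2 and 5-AZA replicates 101 and 102. How the quantifier divided reads between these overlapping entries cannot be told from FPKM, so the low value of the member is no measure of Rpph1 RNA. The RNase P RNA-like gene Rprl3 (NONMMUT064427.2) had 2.53 and 3.00 FPKM untreated and 3.45 and 3.82 FPKM after 5-AZA (log2 change 0.39, limma adjusted p = 0.542). Rprl1 (NONMMUT057330.2), of the same kind, had 0.218 and 0.776 FPKM untreated and 0.133 and 0.0955 FPKM after 5-AZA, below both untreated values (log2 change -1.31, SE 0.63, limma adjusted p = 0.475). Rn7s1 and Rn7s2, copies of the 7SL RNA of the signal recognition particle (NONMMUT014453.2 and NONMMUT014466.2), shared identical values of at most 0.0617 FPKM and were not tested. Of the 143 tested members, 20 overlapped another lncRNA entry on the same strand.

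Some members with high values differed widely between replicates, most of them at pseudogenes. Of the 29 tested members with at least 10 FPKM in a sample, 6 differed over 8-fold between that sample and the other of its group, with values below 0.1 FPKM set to 0.1. Of these 6, 4 were at pseudogenes and 0 at small RNA genes, which held 13 of the 29. NONMMUT057744.2, at the pseudogene Gm10443 (chr6:86334007-86334316, plus strand), had 1234, 1178 and 1185 FPKM in untreated replicate 1 and 5-AZA replicates 101 and 102, but 1.07e-05 FPKM in untreated replicate 2. Its log2 change of 6.73 (SE 4.63, limma adjusted p = 0.600) rested on that sample, and without it the change was -0.063. NONMMUT060358.2, within Pgam1-ps2, a pseudogene of a glycolytic enzyme, had 16.2 and 252 FPKM untreated and 164 and 194 FPKM after 5-AZA. Without untreated replicate 1 its log2 change turned from 1.48 to -0.50.

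Of the other 4, the first 3 named here were high in 1 sample each. NONMMUT034687.2, at the pseudogene Gm15801 within Aldh18a1, had 74.4 FPKM in untreated replicate 1 and at most 0.0992 FPKM elsewhere. NONMMUT046011.2, within Bpnt2, had 28.3 FPKM in untreated replicate 2 and at most 0.0125 FPKM elsewhere. NONMMUT011253.2, at Atp5l-ps2, a pseudogene of an ATP synthase subunit, had 12.4 FPKM in untreated replicate 2 and values near 0 in the other samples. NONMMUT009196.2, within the ubiquitin ligase gene Fbxw11, had 11.1 and 6.21 FPKM untreated and 11.1 and 1.33 FPKM after 5-AZA. A steadier pseudogene member was NONMMUT000375.2, at Gm10925, for which RefSeq lists mt-Atp6 as a synonym. It had 116 and 102 FPKM untreated and 83.0 and 75.7 FPKM after 5-AZA (log2 change -0.46, SE 0.17, unadjusted p = 0.0481 and adjusted p = 0.376 by limma), and reads of such a copy and of the mitochondrial gene cannot be told apart.

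**Figure D3:**
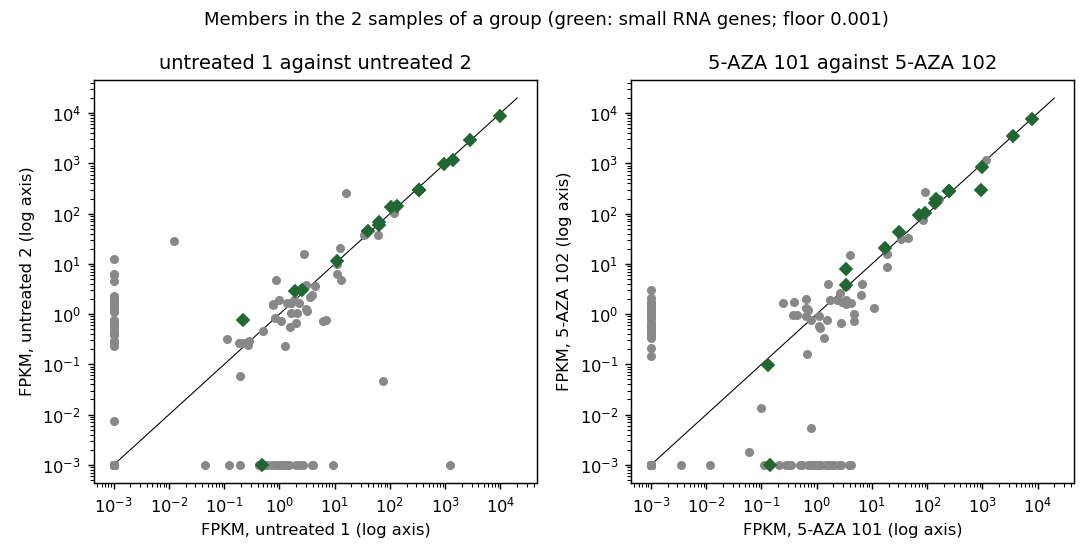
FPKM of each tested member in the replicates of a group (both axes log, values below 0.001 drawn at 0.001), untreated on the left and 5-AZA on the right; the line marks equal values and green diamonds are members at small RNA genes. Most green diamonds lie near the line, while many other members are near 0 in 1 replicate and between 0.1 and 10 FPKM in the other.

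Replicates of the short Linc transcripts lay far apart. The median SD between replicates on the log2 scale was 1.52 for the 143 members tested, 0.364 for the 8905 tested single-exon Linc entries of 400 bases or more, and 0.561 for the 3116 tested multi-exon Linc entries. Only 41 of the 143 had at least 0.1 FPKM in all 4 samples, 22 in 3, 31 in 2 and 49 in 1. The mean was below 1 FPKM for 85 of the 143. The mean of the untreated samples was below 0.1 FPKM for 30 members and that of the 5-AZA samples for another 30, so these passed the limit through the group in which they were high. No test of the difference between the classes was made.

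Longer members were more often detected. Of the members of 200 to 249 bases 3.47% (13 of 375) entered the tests, of 250 to 299 bases 4.35% (20 of 460), of 300 to 349 bases 14.6% (58 of 397) and of 350 to 399 bases 18.3% (52 of 284). Single-exon Linc entries of 400 to 449 bases, just outside the rule, stood at 21.3% (65 of 305). All longer single-exon Linc entries stood at 37.2% (8905 of 23970), and multi-exon Linc entries at 9.98% (3116 of 31211). The catalogue source of the entry also went with detection: 59 of 980 members from Ensembl were tested, against 50 of 200 listed as noncodeV3 and 16 of 63 listed as NONCODEv3. By chromosome, X held the most members, 192, of which 4 were tested. Chromosome 4 held 184, of which 12 were tested, and chromosome 11 held 170, of which 19 were tested.

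The comparison of 5-AZA with untreated samples gave 1 member called, NONMMUT039581.2, at a limma adjusted p below 0.05 and a change over 2-fold. Over all 24075 lncRNAs tested 0.984% were called higher and 0.154% lower. No member was called lower. At an unadjusted p below 0.05, limma had 10 members higher and 8 lower, where 5.25% and 7.89% of all lncRNAs tested were. The 5-AZA values lay above both untreated values in 23 members (16.1%) and below both in 27 (18.9%), against 14.6% and 31.7% of all lncRNAs tested. These counts compare FPKM as listed, with no floor, so values near 0 decide some of them. NONMMUT012423.2 counts as higher with 1.33 FPKM in 5-AZA replicate 102 and values near 0 elsewhere. NONMMUT068313.2 counts as lower with 1.41 FPKM in untreated replicate 1 and values near 0 elsewhere. The 27 also count each of the 3 U3 copies with identical values. The median log2 change was -0.07 for the members, -0.23 for all lncRNAs tested and -0.28 for the longer single-exon Linc entries. Changes over 2-fold were seen in 93 of the 143 (65.0%) and in 25.7% of all lncRNAs tested. Of the 143, 49 reached 0.1 FPKM in 1 sample only, and there 1 value can give such a change. NONMMUT073072.2, with 0.40 FPKM in untreated replicate 2 and values near 0 elsewhere, had a log2 change of -1.16. Members with an untreated mean below 0.1 FPKM (30) or a 5-AZA mean below it (30) passed the limit through the other group. The 65.0% is therefore no measure of a response. With 2 samples against 2, an exact permutation test of a single member cannot go below p = 0.333.

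**Figure D4:**
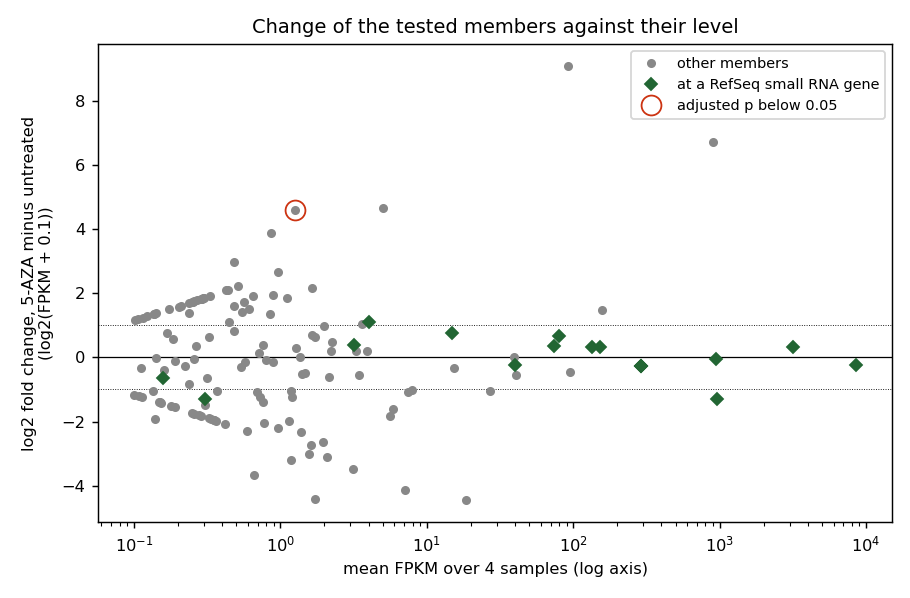
Log2 fold change (5-AZA minus untreated, on log2(FPKM + 0.1)) of each of the 143 tested members against its mean FPKM (log axis); dotted lines mark a 2-fold change, green diamonds members at small RNA genes and the red circle the member with an adjusted p below 0.05. The diamonds stay between -1.31 and 1.12, and 93 of the 143 members lie beyond the dotted lines.

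NONMMUT039581.2 (288 bases, chr2:123273924-123274211, plus strand) lies in no RefSeq gene, 464371 bases from the nearest protein-coding gene, Sqor. It was listed at 3.84e-11 and 4.05e-28 FPKM in the untreated samples, which carries no measurable level, and at 3.45 and 1.55 FPKM in the 5-AZA samples. The groups did not overlap, and the log2 change was 4.599 (SE 0.49, limma adjusted p = 0.0462), a value that the pseudocount of 0.1 FPKM sets. It was 7.86 with a pseudocount of 0.01 FPKM and 1.75 with 1 FPKM. The adjusted p ran from 0.0338 to 0.385 over 13 other settings and was below 0.05 in 4 of them. Without any 1 of the 4 samples no lncRNA of the table was called.

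The other rises with the smallest p were values that did not pass the test. NONMMUT075222.1 (387 bases, chr1:34350775-34351161, plus strand) lies in no RefSeq gene, 42113 bases from Dst, which encodes the cytoskeletal linker dystonin. It had 0.737 and 7.77e-04 FPKM untreated, and 92.4 and 273 FPKM after 5-AZA. Both 5-AZA values were far above both untreated values, at a log2 change of 9.10 (SE 1.18, limma adjusted p = 0.0779), and the adjusted p fell below 0.05 in 2 of 13 other settings. It was the only member among the 15 most abundant outside every RefSeq span. Dst did not pass the test (log2 change 0.07, limma adjusted p = 0.745).

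NONMMUT047217.2 (365 bases, chr4:48675156-48675520, plus strand) starts 1664 bases beyond the end of Cavin4, on the same strand. Cavin4 encodes the caveolar coat protein of muscle. The member was near 0 in both untreated samples and had 2.79 and 0.658 FPKM after 5-AZA (log2 change 3.89, SE 0.74, limma adjusted p = 0.178). Cavin4 had 1.88 and 2.08 FPKM untreated and 10.9 and 13.1 FPKM after 5-AZA, and it rose (log2 change 2.54, SE 0.17, limma adjusted p = 1.23e-05). NONMMUT074423.2 (308 bases, chrX:152923453-152923760, minus strand), 82709 bases from Usp51, had 0.502 and 0.469 FPKM untreated and 1.59 and 3.997 FPKM after 5-AZA (log2 change 2.17, SE 0.50, limma adjusted p = 0.237).

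The members with the smallest p among those lower after 5-AZA did not pass the test either. NONMMUT041636.2 (332 bases, chr2:174291341-174291672, minus strand) lies within Gnasas1, the antisense transcript of the imprinted Gnas locus. It had 1.96 and 0.675 FPKM untreated and was listed at 0 in both 5-AZA samples (limma adjusted p = 0.137). The member overlaps 2 other lncRNA entries on the same strand. How reads were divided between them cannot be told from FPKM, so its values are no measure of Gnasas1 RNA. Gnas, on the other strand, had 213, 220, 187 and 210 FPKM in untreated replicates 1 and 2 and 5-AZA replicates 101 and 102 (log2 change -0.13, limma adjusted p = 0.402). NONMMUT042652.2, at the pseudogene Gm12540, had 6.21 and 0.717 FPKM untreated and 0.0117 and near 0 FPKM after 5-AZA (log2 change -4.43, SE 1.06, limma adjusted p = 0.250). It overlaps another lncRNA entry on the same strand, NONMMUT042651.2, with the same limit. NONMMUT008473.2, within Nudcd3, had 3.02 and 1.28 FPKM untreated and 0 and 0.410 FPKM after 5-AZA (log2 change -3.20, SE 0.94, limma adjusted p = 0.315).

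NONMMUT033869.2 (386 bases, chr19:10063632-10064017, minus strand) lies within Fads2, the delta-6 fatty acid desaturase gene, on the same strand. It ends 867 bases before the end of the gene. Reads of the member and of Fads2 RNA cannot be told apart from FPKM. The member had 34.4 and 38.3 FPKM untreated and 19.1 and 15.9 FPKM after 5-AZA, with no overlap (log2 change -1.06, SE 0.19, limma adjusted p = 0.162). Fads2 had 59.1 and 58.3 FPKM untreated and 35.3 and 42.2 FPKM after 5-AZA. It was lower by less than 2-fold (log2 change -0.60, SE 0.11, limma adjusted p = 0.00465). NONMMUT062727.2, the member whose letters reach into the Ankrd42 window, lies in the lncRNA gene Gm26944 and had 11.02 and 9.94 FPKM untreated and 6.65 and 3.91 FPKM after 5-AZA (log2 change -1.02, SE 0.32, limma adjusted p = 0.332). Ankrd42 had 1.85, 1.51, 1.23 and 1.93 FPKM in untreated replicates 1 and 2 and 5-AZA replicates 101 and 102, and its groups overlapped.

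**Figure D5:**
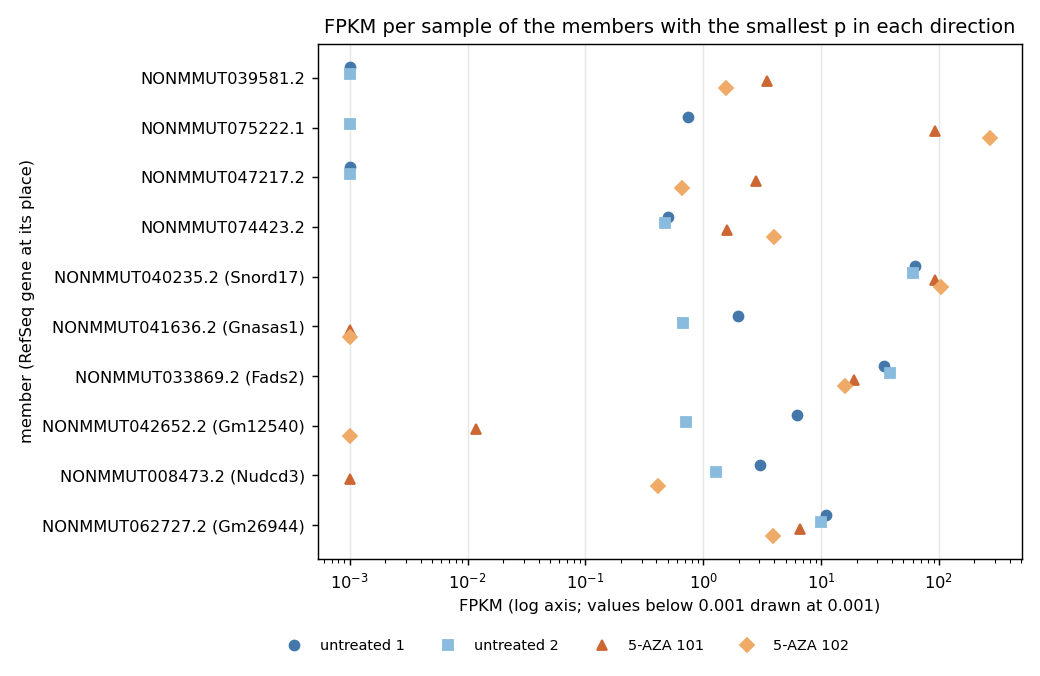
FPKM in each of the 4 samples (log axis, values below 0.001 drawn at 0.001) of the 5 higher and the 5 lower members with the smallest p among those whose groups do not overlap and that reach 1 FPKM in the higher group. NONMMUT075222.1 shows the widest gap, from at most 0.737 FPKM untreated to at least 92.4 FPKM after 5-AZA, and NONMMUT039581.2 alone has an adjusted p below 0.05.

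The other members shown beside a promoter window were low. NONMMUT009108.2, 101 bases from Psme4, a proteasome activator gene, had 0.269 and 0.244 FPKM untreated and 0.692 and 1.23 FPKM after 5-AZA (log2 change 1.52, SE 0.39, limma adjusted p = 0.273). Psme4 on the opposite strand was lower after 5-AZA (log2 change -0.59, SE 0.11, limma adjusted p = 0.00519). NONMMUT068641.2 lies within the span of Msantd2 on the opposite strand. It was listed at 0 in both untreated samples and had 0.249 and 1.69 FPKM after 5-AZA (limma adjusted p = 0.325). Msantd2 had 4.27, 3.63, 3.52 and 3.46 FPKM in untreated replicates 1 and 2 and 5-AZA replicates 101 and 102 (log2 change -0.17, limma adjusted p = 0.538).

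Within protein-coding spans, tested members lay mostly on the strand of the gene. Of the 89 tested members in such a span, the strand of the gene was known for 73, and 57 (78.1%) were on the same strand and 16 on the opposite one. Among the members that were not tested it was 202 of 438 (46.1%). Some ended at the end of the gene. NONMMUT063302.2 ends 4 bases before the end of Far1, a fatty acyl-CoA reductase gene, and had 35.5 and 42.5 FPKM untreated and 45.4 and 33.4 FPKM after 5-AZA. NONMMUT055864.2 ends 6 bases before the end of Capza2, an actin capping protein gene, and had 12.5, 21.0, 19.0 and 8.81 FPKM in untreated replicates 1 and 2 and 5-AZA replicates 101 and 102. The groups overlapped in both. Their FPKM cannot be told apart from reads of the last exon of the gene. The change had the same sign as that of the gene in 29 of the 53 same-strand members with both tested, and in 7 of 15 opposite-strand members. The 53 count each of the 3 U3 copies with identical values within Tex14.

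The genes of the complexes that process or degrade short unspliced RNAs gave no call. Of 20 genes of the nuclear exosome and its cofactors, all tested, 0 were called by limma, and their log2 changes ran from -0.26 to 0.30 with a median of -0.01. Of 14 tested genes of Integrator, which ends transcription of small nuclear RNAs, 0 were called, with log2 changes from -0.38 to 0.31 and a median of -0.05. Over the 13199 genes tested 13.1% were called higher and 1.32% lower.

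Of the marker lists, only those of skeletal muscle and adipocytes had every gene called higher in the 5-AZA samples. The summed level of 10 mesenchymal markers was 8102 and 8139 FPKM untreated and 4542 and 4427 FPKM after 5-AZA, and 1 of 9 tested, Thy1, was called higher. The sum is mostly S100a4 and Vim, which were lower after 5-AZA, while the median log2 change of the 9 was 0.26 and 4 of them were below 0. All 7 skeletal muscle markers were called higher, with sums of 1.39 and 0.986 FPKM untreated and 694 and 1078 FPKM after 5-AZA. All 5 adipocyte markers were called higher too, with sums of 31.5 and 14.2 FPKM untreated and 1072 and 1468 FPKM after 5-AZA. All 5 cardiac markers were listed at 0 in every sample. Of the other lists, 3 of 4 epithelial, 1 of 3 tested immune and 1 of 2 tested endothelial markers were called higher. With a pseudocount of 1 FPKM, chosen after seeing the data, these calls were 2, 0 and 0, and 6 of the 7 skeletal muscle markers were called. The part of these cell type differences in the changes of the members was not tested.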

How the data were processed

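Ribosomal RNA was depleted and stranded libraries of 2 untreated and 2 5-AZA samples were sequenced. The authors deposited FPKM per transcript for lncRNAs and mRNAs, and the submitters' processing notes name Trimmomatic, HISAT2, Bowtie2 2.2.9 and eXpress 1.5.1 with build mm9. FPKM keep no read numbers, so depth is unknown. eXpress divides reads shared by overlapping or near-identical entries, which affects copies and nested entries. The circRNA table was not used here.

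Log2(FPKM + 0.1) of all 24075 lncRNAs with a mean of at least 0.1 FPKM was fitted with limma 3.58.1 (lmFit, eBayes with trend) in R 4.3.3 with Benjamini-Hochberg adjustment. A call needed an adjusted p below 0.05 and a change over 2-fold. The count model of the study could not be used on FPKM. mRNA transcripts were summed per gene, and 13199 genes were tested likewise. The fit was run on simulated normal log values with the widest replicate spreads capped. This checked only the sign of large rises and that larger changes were recovered more often. It gives no error rate for the members. Members and lists were chosen with earlier results of these data known.

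Named were the 15 members with the highest mean, the called members, filled to 5 in each direction by the smallest p (groups apart, at least 1 FPKM in the higher group), those with at least 10 FPKM and over 8-fold between replicates, and up to 10 that equal a RefSeq non-coding gene over most of their length. That last rule asked for the same strand, which the RefSeq table does not give, so position alone was used. The qPCR targets of the study were not among the members. Other members, such as those at Rpph1, gene ends and promoter windows, were chosen after their values were seen. Alternatives were other pseudocounts, limits, scalings and eBayes settings, and the omission of each sample.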

Additional observations from a re-analysis of the deposited data

How the results depend on the processing

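FPKM keep no depth, so no counting error can be given for low values, and 2 samples a group limit every test. The single member called higher was not called with no limit on low values, with a mean of at least 1 FPKM, or by eBayes without trend, each giving 0, nor with any sample left out (0 to 0 calls). With a pseudocount of 1 FPKM or scaling to the sum without the most abundant lncRNA, 1 member was still called, but a different one, NONMMUT075222.1 (adjusted p = 0.0361 and 0.0425 by limma). The count of members called lower was 0 except with quantile normalization, which called 3, the copies of U3 RNA with identical values (log2 change -1.53, adjusted p = 0.0318 by limma).

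The median log2 change of the members, -0.07, was -0.25 with a mean of at least 1 FPKM, 0.095 with median centring and -0.38 with scaling to the sum, where all lncRNAs moved from -0.23 to -0.06 and -0.57 in the last 2 cases. With a sample left out it ran from -0.22 to 0.29, and over members outside every RefSeq span, chosen after seeing the data, it was 0.18. A length below 300 bases left 835 members, 33 of them tested. A mean of at least 1 FPKM left 58 tested, 14 of them with the 5-AZA values above both untreated ones and 19 with them below both. The 19 count each of the 3 U3 copies with identical values. The matching shares over all lncRNAs were not computed at this limit. At the main limit, 29 tested members lay outside every span. Without the most abundant member the shares of the lncRNA sum were 6.03%, 4.97%, 5.28% and 3.70%.

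Among the values of named members under other settings, 13 changed sign, and none of these passed the test. Quantile normalization gave -0.90 for NONMMUT001904.2, -0.83 for NONMMUT049856.2, -0.085 for NONMMUT040235.2 and -0.45 for NONMMUT001905.2. Scaling to the sum gave -0.12 for NONMMUT058844.2, and -0.13, -0.13 and -0.093 for NONMMUT001904.2, NONMMUT049856.2 and NONMMUT001905.2. Median centring gave 0.11 for NONMMUT043439.2. With a sample left out, NONMMUT043439.2 ran from -0.16 to 0.042, NONMMUT057744.2 from -0.063 to 13.53, NONMMUT060358.2 from -0.50 to 3.46 and NONMMUT009196.2 from -2.56 to 0.41. The cause was not tested. No paired analysis was possible because the groups share no replicate numbers.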
